A study of Mus musculus with 62 samples.

Results

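The 37 genes described here encode secreted proteins of the extracellular matrix, and they were followed in bulk RNA-seq of the mouse cerebellum in a melanoma model of cachexia, a loss of body mass caused by some tumours. They were listed by symbol for their known place in the matrix, with earlier results of these data known. They are 37 of 47643 symbols in the table. All 37 had a mean of at least 1 TPM over the 62 libraries, and so all were among the 14399 genes tested. They fall into 15 genes of fibrillar and meningeal matrix, 15 of basement membrane, 5 of perineuronal matrix, and the matricellular pair Sparc and Sparcl1.

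Female mice, 2 months old at injection per the series design, received melanoma cells that cause cachexia (CAC), melanoma cells that do not (NCAC), or a mock injection. The cerebellum was taken 2, 4, 6 or 8 weeks (wk) later, with 5 libraries in each of the 12 groups except for 7 in CAC at 8 wk. The sources disagree on the host: the sample labels name C57BL6/J, and the series design names NCI Ath/nude, athymic mice that lack mature T cells, so the strain is not settled here. A treatment field that reads cachectic melanoma for all 62 samples was set aside. Libraries are described as biological replicates but are not tied to named animals, so p-values measure the spread between libraries. The extraction text also refers to an LLC cell injection, which matches no group here. The sources used here give neither the names of the melanoma lines nor whether each is 1 clone.

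The extracellular matrix of the brain differs by place. Fibrillar collagens and the small proteoglycans that coat their fibrils lie mainly in the meninges and around large vessels, and fibroblasts make much of them. Basement membranes are thin sheets of laminin and collagen IV networks, joined by nidogens and heparan sulfate proteoglycans, that lie under the meninges and around every vessel. Around certain neurons, among them those of the deep cerebellar nuclei, hyaluronan chains carry aggrecan, brevican or neurocan, held on by link proteins, and form perineuronal nets.

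Expression was given as TPM, a transcript abundance that is scaled to gene length and to a fixed total per library. Levels therefore compare between genes, but the depth of each library is unknown. Sparcl1 was the most abundant member at a mean of 2294 TPM over all libraries, followed by Sparc at 950.3 TPM, the link protein gene Hapln4 at 220.1 TPM and the brevican gene Bcan at 136 TPM. Mean levels ran from 2.51 to 51.6 TPM in the fibrillar and meningeal genes, from 1.62 to 62.6 TPM in the basement membrane genes, and from 1.25 to 220.1 TPM in the perineuronal genes. The highest of the fibrillar genes were Mgp at 51.6 TPM and Dcn, which encodes decorin, at 45.7 TPM. Among basement membrane genes the highest were Col18a1 at 62.6 TPM and Agrn, which encodes agrin, at 36.9 TPM. Libraries of one group differed most in the fibrillar genes, with a median coefficient of variation of 18.6% within groups, against 10.7% for basement membrane genes and 10.8% for perineuronal genes. Col2a1 was the most variable member at 45.7%, and Sparcl1 the least at 4.57%.

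At 8 wk the matrix genes did not move as one block. In CAC cerebella 5 members were higher than in mock cerebella (Sparc, Mgp, Fmod, Fn1 and Lama2) and 7 were lower (Col2a1, Lum, Col15a1, Nid1, Col4a1, Ncan and Hapln4). Both directions occurred among the fibrillar genes (3 higher and 2 lower of 15) and among the basement membrane genes (1 higher and 3 lower of 15). The perineuronal genes included 2 lower and 0 higher of 5, and Sparc but not Sparcl1 was higher in the matricellular pair. A member was called where limma's moderated test on log2(TPM + 1), fitted to all 12 groups, gave an adjusted p under 0.05 over all genes. The 12 called members of 37 stand against 20.8% of all genes tested in that comparison, 13.4% higher and 7.34% lower, and the median log2 fold change was -0.05 over the members and 0.02 over all genes. The members were chosen with earlier results of these data known, so these shares are no test of the list. Of all genes called, 64.6% were higher here, against 50.4% under median-of-ratios scaling, 47.0% under quantile normalization and 41.8% without mitochondrially encoded genes. Fold changes on this scale understate the change of genes with low TPM. In bulk tissue, fewer cells of a type and less RNA per cell cannot be told apart.

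**Figure D1:**
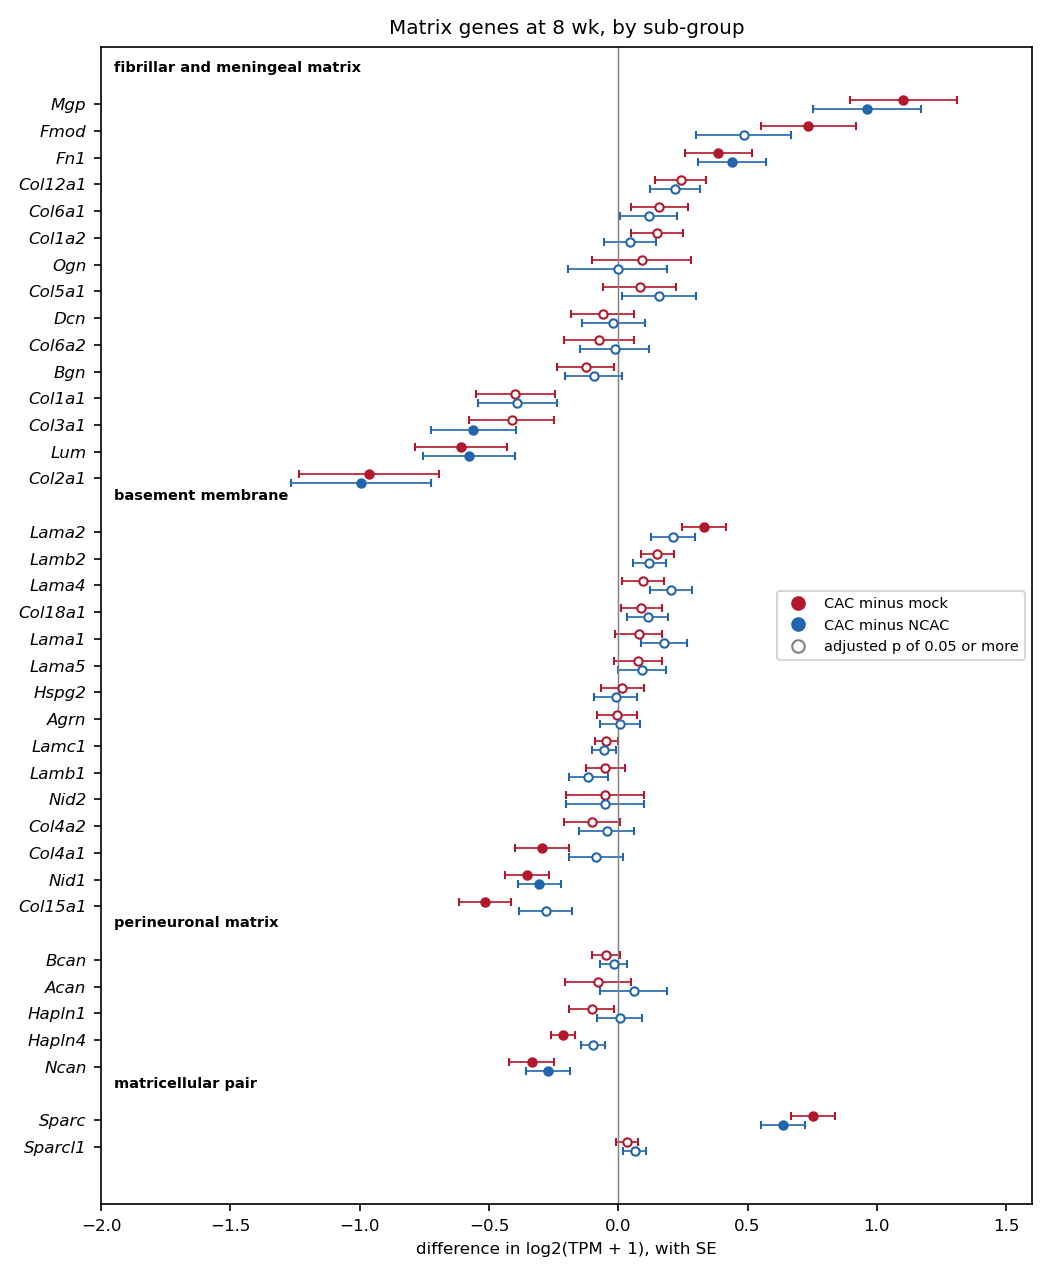
Difference in log2(TPM + 1) at 8 wk for each of the 37 members, grouped by kind of matrix, as CAC minus mock (red) and CAC minus NCAC (blue). Points are fitted differences with their SE, and filled points have an adjusted p under 0.05. Mgp stands at 1.10 and 0.96, Sparc at 0.75 and 0.64, and Col2a1 at -0.96 and -0.997.

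Against the non-cachectic tumour at 8 wk, 8 members passed, 3 higher (Sparc, Mgp and Fn1) and 5 lower (Col2a1, Col3a1, Lum, Nid1 and Ncan), where 11.8% of all genes passed, 7.76% higher and 4.01% lower. Of the 13 members called against mock or NCAC at 8 wk, 7 were called against both, 5 against mock alone, and Col3a1 against NCAC alone. The comparisons share the CAC libraries, so the shared calls are not independent. Against mock at 8 wk, groups without overlap were seen for 4 members (Mgp, Fmod, Sparc and Col2a1), where 4.49% of all genes had such groups. When only the groups compared were fitted, 10 of the 12 calls against mock were made, 5 higher and 5 lower, but 3 of the 8 against NCAC, all of them higher (Sparc, Mgp and Fn1). Fitted in that way, 11.4% of all genes were called against mock and 4.76% against NCAC. Against NCAC, groups without overlap were seen for Mgp and for the laminin gene Lama1, where 2.6% of all genes had them.

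One CAC library of 8 wk, replicate 3, stood apart. Its red cell markers summed to 20422 TPM, against 129 to 2335 TPM in the other 6 CAC libraries of that week, and its meningeal fibroblast markers to 238 TPM against 161 to 199 TPM. It also lay above those 6 for cerebellar neuron markers (7488 TPM against 6439 to 6939) and mural markers (296 TPM against 224 to 274). For choroid plexus markers it lay within their range (6396 TPM against 2426 to 7092). Within its group it was the lowest library for Sparc, Mgp, Fn1 and Lama2 and the highest for Lum, Col3a1, Col1a1, Col15a1 and Nid1. These are the sides nearest the other groups, and the library was picked out after its values were seen. Leaving it out can only widen the differences of these genes, so calls added in that way are no independent support. Without it, 14 members were called against mock, with the same 12 and in addition Col1a1 (-0.49; adjusted p = 0.0136) and Col3a1 (-0.52; adjusted p = 0.0142), where 24.5% of all genes were called. Against NCAC, 11 were called without it, the same 8 with Col15a1 (-0.35; adjusted p = 0.0113), Col1a1 (-0.48; adjusted p = 0.0208) and Lama2 (0.26; adjusted p = 0.0272) in addition, where 16.0% of all genes were called. Replicate 3 of NCAC at 8 wk in turn lay toward CAC for several members. It was the highest NCAC library for Sparc and Fmod and the lowest for Col2a1, Lum, Nid1, Ncan, Col15a1 and Hapln4. For Mgp, Fn1, Lama2, Col3a1 and Col4a1 it was neither.

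Promoter sequence is shown for 4 of the members called at 8 wk: Fmod and Lama2, which were higher in CAC than in mock, Col15a1, which was lower, and Col3a1, which was lower than in NCAC. These were the called members whose upstream window was in the table and held no annotated exon. Each line gives the 250 bases before the RefSeq start of the gene (GRCm38.p6), 5′ to 3′ on the strand of the gene. Capitals mark matches to the motifs named below the sequences. For Lama2 the RefSeq start lies inside the GENCODE gene, whose longest transcript begins farther upstream.
Fmod (chr1:134037004-134037253, plus strand): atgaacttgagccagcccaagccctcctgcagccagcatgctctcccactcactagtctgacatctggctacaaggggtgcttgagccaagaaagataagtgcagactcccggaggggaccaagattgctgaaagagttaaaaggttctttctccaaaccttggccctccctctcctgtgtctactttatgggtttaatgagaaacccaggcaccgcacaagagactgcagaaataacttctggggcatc
Lama2 (chr10:27616943-27617192, minus strand): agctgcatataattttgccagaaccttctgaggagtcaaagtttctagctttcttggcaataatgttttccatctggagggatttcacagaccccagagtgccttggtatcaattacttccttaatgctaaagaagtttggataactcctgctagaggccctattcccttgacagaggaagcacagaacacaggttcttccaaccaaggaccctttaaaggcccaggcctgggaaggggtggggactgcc
Col15a1 (chr4:47207762-47208011, plus strand): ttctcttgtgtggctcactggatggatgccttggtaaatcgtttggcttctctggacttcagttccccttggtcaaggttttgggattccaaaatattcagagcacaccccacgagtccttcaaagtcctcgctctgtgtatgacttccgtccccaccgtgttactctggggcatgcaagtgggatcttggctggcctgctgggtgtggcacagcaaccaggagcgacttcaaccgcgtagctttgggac
Col3a1 (chr1:45311288-45311537, plus strand): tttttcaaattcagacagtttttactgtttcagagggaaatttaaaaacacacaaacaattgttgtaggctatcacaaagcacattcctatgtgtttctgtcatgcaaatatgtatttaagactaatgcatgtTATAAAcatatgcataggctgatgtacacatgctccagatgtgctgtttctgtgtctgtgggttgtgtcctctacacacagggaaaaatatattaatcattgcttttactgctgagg
Both strands were searched for the TATA box, spelled TATAAA, and for the upstream element CCAAT. They were also searched for the GC box, spelled GGGCGG. An AP-1 site was spelled TGANTCA. A STAT site was spelled TTCNNNGAA, where N is any base. Of these windows only that of Col3a1 held a match, TATAAA beginning 117 bases before the start. Promoter entries were found for 24 of the 37 members. Among these, 14 held GGGCGG, 8 CCAAT, 3 TATAAA, 1 TGANTCA and 1 TTCNNNGAA. Over 32851 promoters of the same length the shares were 32.7%, 33.8%, 12.4%, 6.75%, 7.02% and 0.387% in the same order. A member with several entries counted once if any of them matched, whereas the shares are of single entries. A match describes the letters in the window and not a bound site.

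Sparc (chr11:55394500-55423183, minus strand; coordinates of genes are GENCODE M21 on GRCm38) encodes a secreted collagen-binding glycoprotein that regulates how cells interact with matrix, and it gave the smallest p of any member in the CAC comparisons from 4 to 8 wk. At 8 wk the CAC libraries held 963 to 1608 TPM with a median of 1425 TPM. The NCAC libraries held 805, 820.4, 1070.3, 863 and 821 TPM, and the mock libraries 816, 821, 757, 862 and 767 TPM. All 7 CAC libraries lay above all mock libraries, whereas CAC replicate 3, at 963 TPM, lay below NCAC replicate 3, the highest NCAC library. Sparc averaged 1371 ± 212 TPM in CAC (SD, n = 7), against 876 ± 111 TPM in NCAC (SD, n = 5) and 805 ± 43 TPM in mock (SD, n = 5). The log2 fold change was 0.75 ± 0.09 (SE; adjusted p = 1.96e-08) against mock and 0.64 ± 0.09 (SE; adjusted p = 9.79e-07) against NCAC. Both calls held under every alternative run, and without CAC replicate 3 the fold changes were 0.83 and 0.72.

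The difference in Sparc was already present at 6 wk. The CAC libraries then held 1454, 1282, 1177, 1001 and 1005 TPM, the NCAC libraries 848, 802, 831, 806 and 883 TPM and the mock libraries 823, 794, 830.2, 851 and 836 TPM. Every CAC library was above every NCAC and mock library. The log2 fold change was 0.50 ± 0.09 (SE; adjusted p = 0.00199) against mock, where Sparc was the only member called and 1.72% of all genes were called, and 0.49 ± 0.09 (SE; adjusted p = 0.00181) against NCAC. The call against mock was lost when only the groups compared were fitted (adjusted p = 0.0744). At 4 wk the CAC libraries spread widely, at 905, 1241, 943, 1112 and 849.6 TPM, against 836, 898, 818, 824 and 811 TPM in NCAC and 853, 827, 839, 812 and 855 TPM in mock. Replicates 2 and 4 of CAC were the highest of that week and replicate 5 lay within the other groups. Neither difference at 4 wk passed (0.26, adjusted p = 0.538 against mock; 0.26, adjusted p = 0.405 against NCAC). At 2 wk Sparc averaged 957 ± 75.9 TPM in CAC, 856 ± 92.9 in NCAC and 841 ± 60 in mock, with overlapping groups.

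Sparcl1 (chr5:104079111-104113733, minus strand), whose product hevin is a relative of Sparc secreted by astrocytes and known for promoting synapse formation, showed no called difference in any comparison. At 8 wk it held 2101 to 2457 TPM with a median of 2331 TPM in CAC, 2211, 2118, 2233, 2235 and 2290.4 TPM in NCAC and 2316, 2295, 2387, 2183 and 2135 TPM in mock. The groups overlapped throughout, and group means over all weeks and treatments lay between 2217 and 2396 TPM. The difference between CAC and mock at 8 wk had an interval of 2 SE to either side of -0.05 to 0.12 on the log2 scale, against 0.58 to 0.92 for Sparc. The difference between the genes was not itself tested.

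**Figure D2:**
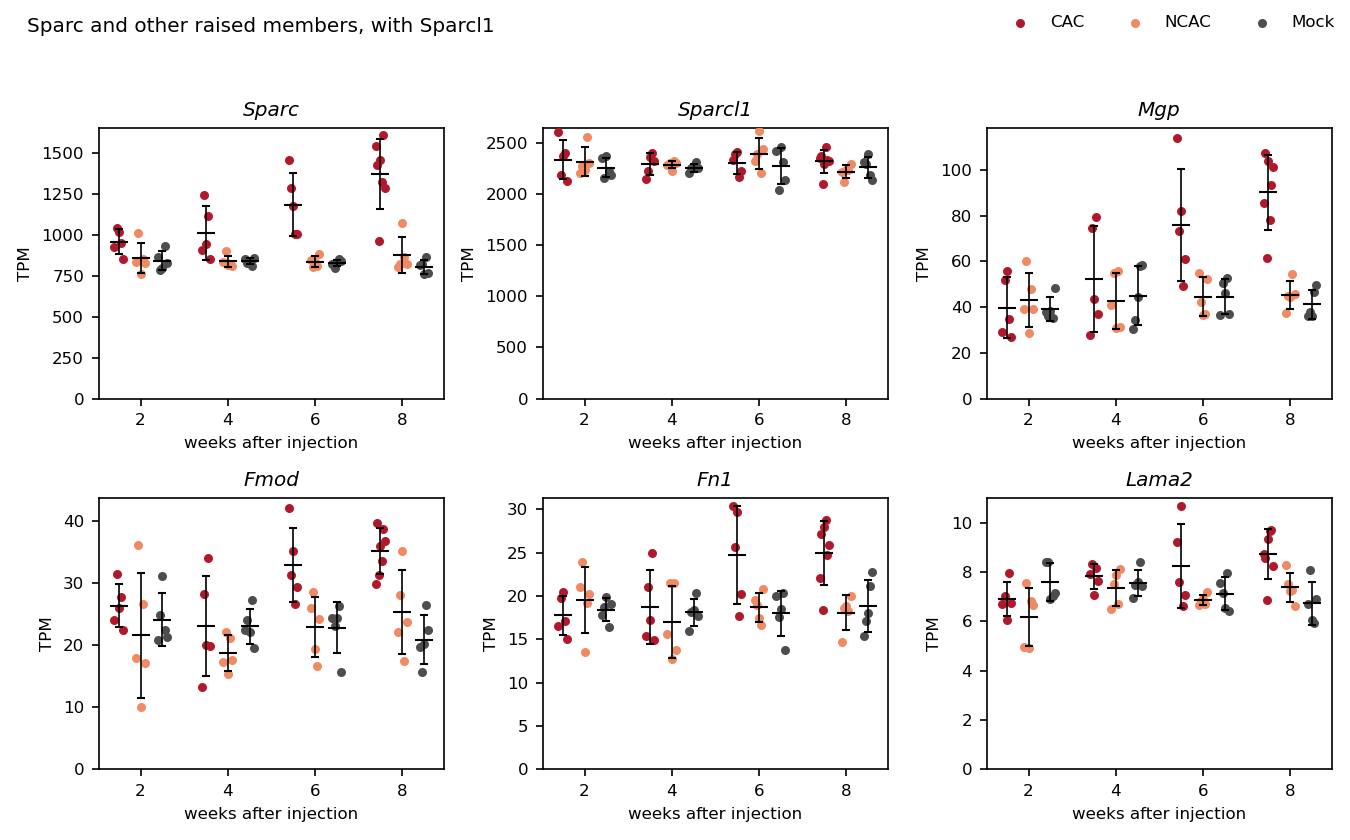
TPM of Sparc, Sparcl1, Mgp, Fmod, Fn1 and Lama2 in every library by week after injection, with CAC, NCAC and mock side by side. Each point is a library, and bars give the group mean and SD (n = 5, and 7 for CAC at 8 wk). Sparc averages 1371 TPM in CAC at 8 wk against 876 in NCAC and 805 in mock, while Sparcl1 stays between 2217 and 2396 TPM in all group means.

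Among the fibrillar and meningeal genes, Mgp (chr6:136872435-136875823, minus strand) had the largest difference. It encodes matrix Gla protein, a small vitamin K-dependent protein that inhibits calcification. At 8 wk it held 61.4 to 107 TPM with a median of 93.3 TPM in CAC, against 37.4, 44.8, 44.4, 54.4 and 45.8 TPM in NCAC and 36, 37.7, 36.2, 46.5 and 49.5 TPM in mock. The lowest CAC library, replicate 3, was still above the highest of both other groups. On the log2 scale the difference was 1.10 ± 0.21 (SE; adjusted p = 1.45e-04) against mock and 0.96 ± 0.21 (SE; adjusted p = 0.00141) against NCAC, and both calls held under every alternative.

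At 6 wk Mgp was at 114, 73.4, 82.1, 49.3 and 61 TPM in CAC, 54.8, 42.1, 36.3, 37.1 and 52.4 TPM in NCAC and 36.6, 50.7, 46.1, 52.6 and 37.1 TPM in mock. Replicate 4 of CAC lay within the range of both other groups, and replicate 1 was the highest library of the series for this gene. The difference from NCAC passed at 0.72 ± 0.23 (SE; adjusted p = 0.034), and that from mock did not (0.71, adjusted p = 0.084). The call against NCAC at 6 wk was lost without CAC replicate 1 (0.156) or 3 (0.0762), without NCAC replicate 2 (0.0697), 3 (0.0858) or 4 (0.0639), under both other scalings (0.054 and 0.0547), with no filter on low genes (0.0565) and with only the groups compared (adjusted p = 0.067).

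Fmod (chr1:134037254-134048277, plus strand), which encodes fibromodulin, a small leucine-rich proteoglycan that binds collagen fibrils, was at 29.8 to 39.6 TPM with a median of 36 TPM in CAC at 8 wk. It was at 22.2, 28.2, 35.3, 17.5 and 23.8 TPM in NCAC and 19.8, 15.6, 20.2, 26.5 and 22.5 TPM in mock. No CAC library overlapped mock, but NCAC replicate 3 lay among the CAC libraries. The difference passed against mock, at 0.73 ± 0.18 (SE; adjusted p = 0.003), and not against NCAC, at 0.49 ± 0.18 (SE; adjusted p = 0.0752). Fn1 (chr1:71585520-71653200, minus strand), which encodes fibronectin, an adhesive protein bound by integrins, was at 18.4 to 28.8 TPM with a median of 25.9 TPM in CAC, 14.7, 18.6, 18.8, 18.3 and 20 TPM in NCAC and 15.4, 17.1, 18, 21.2 and 22.7 TPM in mock. CAC replicate 3 was the lowest of its group and lay within both other groups, and the highest mock library lay among the CAC libraries. The log2 fold changes were 0.39 ± 0.13 (SE; adjusted p = 0.0284) against mock and 0.44 ± 0.13 (SE; adjusted p = 0.0201) against NCAC. Against mock, leaving out CAC replicate 2 (0.0528), 4 (0.0555) or 5 (0.0519) ended the call, as did leaving out mock replicate 1 (0.109), 2 (0.0609) or 3 (0.0648), and against NCAC leaving out NCAC replicate 1 did so (adjusted p = 0.0775).

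The members of this sub-group that were lower are collagens and lumican. Col2a1 (chr15:97975602-98004695, minus strand), which encodes collagen II, best known as the main collagen of cartilage, was at 0.51 to 1.68 TPM with a median of 0.978 TPM in CAC at 8 wk. It was at 5.76, 2.16, 0.809, 4.02 and 4.8 TPM in NCAC and 4.05, 3.98, 2.73, 2.35 and 2.21 TPM in mock. All CAC libraries were below all mock libraries, but NCAC replicate 3 lay within the CAC range. The log2 fold change was -0.96 ± 0.27 (SE; adjusted p = 0.00784) against mock and -0.997 ± 0.27 (SE; adjusted p = 0.0106) against NCAC, the second lost without NCAC replicate 1 (0.0562) or 5 (0.0514).

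At 6 wk Col2a1 was at 1.12, 0.526, 0.559, 2.82 and 0.572 TPM in CAC, 2.87, 3.19, 4.33, 2.82 and 3 TPM in NCAC and 1.5, 2.83, 2.67, 1.76 and 4.36 TPM in mock. Replicate 4 of CAC was the single CAC library within the other groups. The difference passed against NCAC (-1.09 ± 0.29, SE; adjusted p = 0.0166) and not against mock (-0.82, adjusted p = 0.132). Of 10 cartilage and bone markers 9 were in the table and 5 were tested, and Col9a2, a chain of the cartilage collagen IX, was also lower at 8 wk, at 15.1 ± 1.08 TPM in CAC and 21 ± 2.76 in mock (-0.44 ± 0.10, SE; adjusted p = 0.00106). In that comparison 7.34% of all genes were lower, and how the other tested markers went is not given here. Col10a1, Matn1 and Ibsp averaged under 0.1 TPM. The list summed to 70.4 to 81.8 TPM in CAC, 84 to 97.2 in NCAC and 74.2 to 84.7 in mock. CAC did not overlap NCAC but did overlap mock, and the part of the list in the Col2a1 difference was not tested.

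Lum (chr10:97565128-97572703, plus strand), which encodes lumican, another small leucine-rich proteoglycan, was at 2.74 to 8.24 TPM with a median of 4.93 TPM in CAC at 8 wk, 7.44, 10.3, 5.49, 9.11 and 7.4 TPM in NCAC and 6.89, 8.52, 8.37, 9.48 and 6.93 TPM in mock. Only CAC replicate 3, at 8.24 TPM, reached the mock range, and NCAC replicate 3 lay among the CAC libraries. The log2 fold changes were -0.61 ± 0.18 (SE; adjusted p = 0.0109) against mock and -0.58 ± 0.18 (SE; adjusted p = 0.0256) against NCAC. The call against NCAC was lost without CAC replicate 1 (0.0827) or 6 (0.0688) and without NCAC replicate 2 (0.103) or 4 (adjusted p = 0.0788). Its neighbour Dcn, which lies 46984 bases upstream on the same strand and encodes a protein of the same family, did not pass. Dcn was at 41.3 to 53.3 TPM with a median of 49.7 TPM in CAC at 8 wk, 44.2, 56.6, 50.2, 45.2 and 48 TPM in NCAC and 51.5, 46.9, 46.9, 52 and 53.7 TPM in mock, with groups that overlapped, and its difference from mock was -0.06, with an interval of -0.30 to 0.18.

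Col3a1 (chr1:45311538-45349706, plus strand), which encodes collagen III, a partner of collagen I in soft tissue fibrils, was at 1.11 to 3.39 TPM with a median of 1.78 TPM in CAC at 8 wk, 2.16, 4.13, 2.91, 3 and 3.79 TPM in NCAC and 2.84, 3.29, 2.52, 2.64 and 2.46 TPM in mock. Of the 7 CAC libraries, 6 lay below every NCAC and mock library, and replicate 3, at 3.39 TPM, lay among them. The difference from NCAC passed (-0.56 ± 0.16, SE; adjusted p = 0.0184) and that from mock did not (-0.41, adjusted p = 0.0649). The call against NCAC was lost without CAC replicate 1 (0.051) or NCAC replicate 2 (0.0769) or 5 (0.0654). Col1a1, a chain of collagen I, had the same sign but did not pass in either comparison (-0.40, adjusted p = 0.0554 against mock; -0.39, adjusted p = 0.0862 against NCAC). Col1a2, the other chain, did not share that sign, at 0.15 against mock (interval of -0.05 to 0.35) and 0.05 against NCAC, and the difference between the chains was not tested. The remaining fibrillar genes, Col5a1, Col6a1, Col6a2, Col12a1, Bgn and Ogn, had fold changes from -0.13 to 0.24 against mock, and none passed.

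At 8 wk meningeal fibroblast markers summed to 161 to 238, 166 to 236 and 152 to 193 TPM in CAC, NCAC and mock. Of 14 tested, 1 was higher and 1 lower in CAC than in mock, where 20.8% of all genes were called. Those called were Ranbp3l (0.41 ± 0.15, SE; adjusted p = 0.0453) and Slc13a3 (-0.56 ± 0.11, SE; adjusted p = 2.51e-04). Choroid plexus markers summed to 2426 to 7092 TPM in CAC, 395 to 6670.0 in NCAC and 2904 to 5675 in mock. Of 14 tested, limma called 0, and 1 had an unadjusted p under 0.05, as did 33.9% of all genes. No marker of either list was at 0 in every library, and their part in the fibrillar results was not tested.

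**Figure D3:**
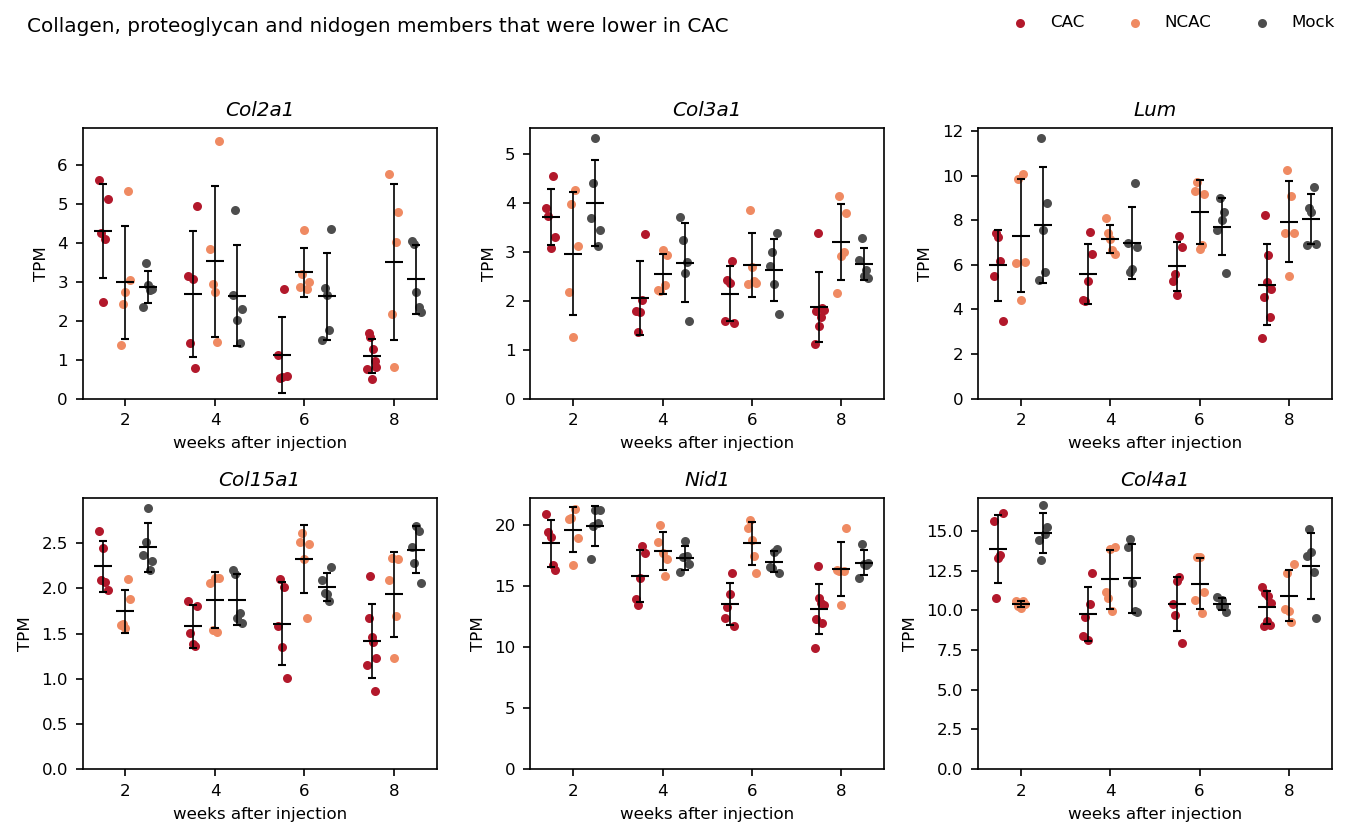
TPM of Col2a1, Col3a1, Lum, Col15a1, Nid1 and Col4a1 in every library by week after injection, with CAC, NCAC and mock side by side. Points are libraries, and bars give the group mean and SD (n = 5, and 7 for CAC at 8 wk). Col2a1 averages 1.08 TPM in CAC at 8 wk, against 3.51 in NCAC and 3.06 in mock, and the mean of Nid1 is 13.2 TPM against 16.4 and 16.9.

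In the basement membrane, Lama2 (chr10:26980036-27619758, minus strand) was the one member that was higher. It encodes the laminin alpha-2 chain, the loss of which causes a muscular dystrophy. At 8 wk it was at 6.86 to 9.71 TPM with a median of 8.75 TPM in CAC, 8.27, 7.53, 7.22, 7.25 and 6.62 TPM in NCAC and 6.7, 8.1, 6.03, 5.93 and 6.91 TPM in mock. CAC replicate 3 was again the lowest CAC library and lay within both other groups, while the other 6 lay above every mock library. The difference passed against mock (0.33 ± 0.09, SE; adjusted p = 0.00411) and not against NCAC (0.21, adjusted p = 0.0995), though without that library it did (0.26; adjusted p = 0.0272). Leaving out the lowest CAC library can only widen this difference, so that call is no independent support.

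Nid1 (chr13:13437551-13512269, plus strand), which encodes nidogen 1, the link between the laminin and collagen IV networks, was lower in CAC than in NCAC at 6 wk and than in both other groups at 8 wk. At 6 wk it was at 12.4, 13.3, 14.3, 16.1 and 11.7 TPM in CAC, 19.8, 20.4, 18.8, 17.5 and 16.1 TPM in NCAC and 16.6, 16.5, 17.9, 18 and 16.1 TPM in mock. Every CAC library was below every mock library, if only just for CAC replicate 4, and below every NCAC library. The difference from NCAC passed (-0.42 ± 0.09, SE; adjusted p = 0.00462) and that from mock did not (-0.31, adjusted p = 0.0565). At 8 wk Nid1 was at 9.95 to 16.7 TPM with a median of 13.4 TPM in CAC, 16.4, 16.3, 13.5, 16.3 and 19.8 TPM in NCAC and 15.7, 18.5, 16.8, 16.7 and 17 TPM in mock. Replicate 3 of CAC lay within both other groups, and replicate 3 of NCAC lay among the CAC libraries. The log2 fold changes were -0.35 ± 0.08 (SE; adjusted p = 0.0018) against mock and -0.30 ± 0.08 (SE; adjusted p = 0.0114) against NCAC, the second lost without NCAC replicate 5 (adjusted p = 0.0786). Nid2, the second nidogen gene, did not pass at 8 wk (-0.05 against mock, with an interval of -0.35 to 0.25).

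Col15a1 (chr4:47208161-47313167, plus strand), which encodes a collagen of the zone around vascular basement membranes, had the smallest p of the lower members at 8 wk. It was at 0.865 to 2.14 TPM with a median of 1.41 TPM in CAC, 2.1, 2.34, 1.24, 1.69 and 2.32 TPM in NCAC and 2.46, 2.28, 2.69, 2.64 and 2.06 TPM in mock. Only CAC replicate 3, at 2.14 TPM, reached the mock range, and the NCAC libraries lay across both. Its log2 fold change was -0.52 ± 0.10 (SE; adjusted p = 2.14e-04) against mock, held under every alternative, and -0.28 ± 0.10 (SE; adjusted p = 0.0587) against NCAC. At 6 wk the difference from NCAC was -0.36 ± 0.11 (SE; adjusted p = 0.0302). That call was lost without CAC replicate 1 (0.0792), 3 (0.0781) or 5 (0.126) and without NCAC replicate 1 (0.0603), 2 (0.0813), 3 (0.0583) or 5 (0.0769), and with only the groups compared (adjusted p = 0.134).

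Col4a1 and Col4a2 encode the main collagen IV chains and lie head to head on chromosome 8 with overlapping starts, so reads at the shared start are uncertain. Col4a1 (chr8:11198423-11312826, minus strand) was at 9.04 to 11.5 TPM with a median of 10.5 TPM in CAC at 8 wk, 10.1, 12.4, 9.94, 9.28 and 12.9 TPM in NCAC and 13.4, 15.1, 13.7, 12.4 and 9.53 TPM in mock. Mock replicate 5 was as low as the CAC libraries, and the NCAC libraries covered most of the CAC range. The difference from mock was -0.30 ± 0.10 (SE; adjusted p = 0.0364), and it was the least stable call of that comparison. It was lost without CAC replicate 2 (0.0731), 4 (0.0648) or 6 (0.0819), without mock replicate 1 (0.0861), 2 (0.117), 3 (0.0965) or 4 (0.0534), with no filter on low genes (0.0565) and with only the groups compared (adjusted p = 0.0653). Col4a2 was at -0.10, with an interval of -0.31 to 0.11.

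The other basement membrane genes did not pass at 8 wk. Col18a1, Lama1, Lama4, Lama5, Lamb1, Lamb2, Lamc1, Hspg2 (perlecan) and Agrn had fold changes from -0.05 to 0.15 against mock. Col18a1, which encodes the parent chain of endostatin and the most abundant of these members, was at 58.4 to 73.8 TPM with a median of 63.8 TPM in CAC at 8 wk, 68.4, 58.3, 57.1, 57.1 and 59.1 TPM in NCAC and 57, 67.7, 57.7, 71.4 and 52.9 TPM in mock. Agrn, whose product organizes the neuromuscular junction and also lies in vascular basement membranes, was at 33 to 37.2 TPM with a median of 34.9 TPM in CAC, 36.3, 35.9, 34.4, 31.8 and 35.7 TPM in NCAC and 33.8, 41.3, 35, 34.3 and 31.6 TPM in mock. The groups of both genes overlapped, and their differences from mock had intervals of -0.07 to 0.25 and -0.16 to 0.15 in that order.

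Lama1 had no overlap between CAC and NCAC at 8 wk but did not pass (0.18, adjusted p = 0.209). Vessel markers were read beside these genes. Endothelial markers summed to 359 to 435 TPM in CAC at 8 wk, 321 to 341 in NCAC and 335 to 350.2 in mock, with no overlap between CAC and the others. Of 14 tested, 4 were higher than in mock, among them the glucose transporter gene Slc2a1 (0.59), Esam (0.27) and Abcb1a (0.24). Another 3 were lower, among them the VEGF receptor gene Kdr (-0.69). Of all genes, 13.4% were higher and 7.34% lower in that comparison. Mural cell markers summed to 224 to 296, 243 to 301 and 269 to 296 TPM in CAC, NCAC and mock. Of 11 tested, limma called 0, and 1 had an unadjusted p under 0.05, as did 33.9% of all genes. No marker of either list was at 0 in every library, and their part in the basement membrane results was not tested.

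In the perineuronal matrix, 2 of 5 members were lower in CAC than in mock at 8 wk. Hapln4 (chr8:70083457-70090862, plus strand) encodes a brain link protein that fastens proteoglycans to hyaluronan. It was at 182 to 226 TPM with a median of 209 TPM in CAC, 210.1, 234, 203, 227 and 238 TPM in NCAC and 248, 239, 253, 245 and 218 TPM in mock. Mock replicate 5 was the single mock library within the CAC range, and the NCAC libraries lay across both. The log2 fold change was -0.21 ± 0.05 (SE; adjusted p = 5.86e-04) against mock, a call held under every alternative, and -0.10 ± 0.05 (SE; adjusted p = 0.159) against NCAC. At 2 wk Hapln4 was already at -0.11 against mock, which did not pass (limma's unadjusted p = 0.0271). Within CAC it differed by -0.04 between 2 and 8 wk (adjusted p = 0.607). The gap from mock changed by -0.10 over those weeks (adjusted p = 0.467), so a late fall in CAC was not shown. At 6 wk the difference from NCAC passed (-0.15 ± 0.05, SE; adjusted p = 0.0436). It was lost without CAC replicate 1 (0.157), 3 (0.0682) or 5 (0.0635), without NCAC replicate 1 (0.0958), 2 (0.0768), 3 (0.073) or 5 (0.14), with no filter (0.0673) and with only the groups compared (adjusted p = 0.087).

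Ncan (chr8:70093085-70120873, minus strand), which encodes neurocan, a proteoglycan of the aggrecan family, lies 2222 bases from Hapln4 on the opposite strand, with no coding gene between them. At 8 wk it was at 5.29 to 8.29 TPM with a median of 6.95 TPM in CAC, 8.58, 9.13, 7.14, 9.45 and 9.52 TPM in NCAC and 11.8, 8.94, 9, 8.51 and 7.97 TPM in mock. The groups overlapped, with mock replicate 1 the highest library and CAC replicate 6 the lowest. Its fold change on the log2 scale was -0.34 ± 0.09 (SE; adjusted p = 0.00379) against mock and -0.27 ± 0.09 (SE; adjusted p = 0.0293) against NCAC. The call against NCAC was lost without CAC replicate 6 (0.11) and without NCAC replicate 2 (0.0759), 4 (0.0914) or 5 (0.0933), and that against mock when only these groups were fitted (adjusted p = 0.0532).

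Brevican, aggrecan and the link protein of Hapln1 did not pass. Bcan was at 122 to 143 TPM with a median of 129 TPM in CAC at 8 wk, 132, 136, 136, 126 and 138 TPM in NCAC and 137, 139.8, 132, 144 and 129.7 TPM in mock, with groups that overlapped. The difference from mock was -0.05 for Bcan, with an interval of -0.15 to 0.06, -0.08 for Acan (-0.34 to 0.18) and -0.10 for Hapln1 (-0.27 to 0.07). The intervals of Acan and Hapln1 include the fold change of Hapln4. Of 7 tested genes in a second list of perineuronal and hyaluronan matrix, 2 were lower and 1 higher in CAC than in mock at 8 wk, where 20.8% of all genes were called. Tnc, which encodes the glycoprotein tenascin C, was at 5.05 ± 4.3 TPM in CAC, 13.5 ± 5.12 in NCAC and 16.4 ± 4.95 in mock (-1.72 ± 0.28, SE; adjusted p = 2.42e-05 against mock). Tnr, which encodes tenascin R, a cross-linker of perineuronal nets, was at 33.4 ± 1.57, 40.8 ± 5.52 and 43.4 ± 3.31 TPM in CAC, NCAC and mock (-0.37 ± 0.06, SE; adjusted p = 3.57e-05). Hapln2, a link protein gene of the nodes of Ranvier, was the one that was higher (0.33 ± 0.12, SE; adjusted p = 0.0364). All 3 were also called against NCAC at 8 wk.

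Of 12 astrocyte and Bergmann glia markers, 3 were higher and 3 lower in CAC than in mock at 8 wk, among them Fabp7 at -2.01 and Gdf10 at 0.46. Of all genes, 13.4% were higher and 7.34% lower in that comparison. The list summed to 3069 to 3439 TPM in CAC, 3298 to 3609 in NCAC and 3348 to 3566 in mock. Of 10 cerebellar neuron markers, 2 were lower (Grm4 and Car8), beside the same 7.34% of all genes. That list summed to 6439 to 7488, 6912 to 7527 and 6583 to 7779 TPM in CAC, NCAC and mock, so the labelled tissue held its neurons' transcripts in every group. The part of both lists in the perineuronal results was not tested.

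**Figure D4:**
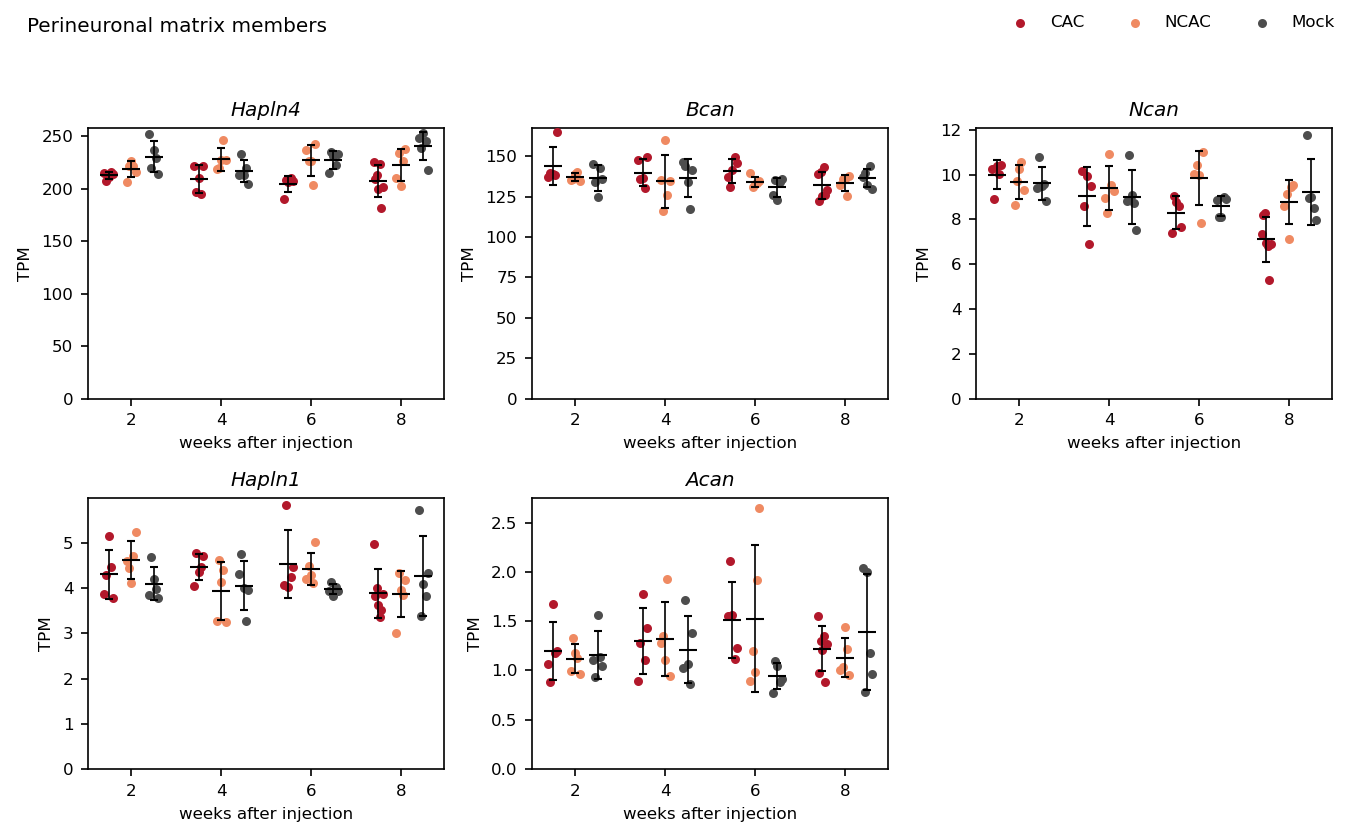
TPM of the 5 perineuronal members, Hapln4, Bcan, Ncan, Hapln1 and Acan, in every library by week after injection, with CAC, NCAC and mock side by side. Points are libraries, and bars give the group mean and SD (n = 5, and 7 for CAC at 8 wk). Hapln4 averages 208 TPM in CAC at 8 wk, against 222 in NCAC and 241 in mock, and Bcan 132 TPM against 134 and 137.

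Genes that act on the matrix were examined as 5 further lists, each set beside the 20.8% of all genes called between CAC and mock at 8 wk. Of 18 tested genes for collagen processing and cross-linking, 3 were lower and 0 higher: the lysyl hydroxylase gene Plod1 (-0.26 ± 0.07, SE; adjusted p = 0.00442), the procollagen N-proteinase gene Adamts2 (-0.27 ± 0.09, SE; adjusted p = 0.0204) and the collagen chaperone gene Serpinh1 (-0.37 ± 0.14, SE; adjusted p = 0.0447). Of 19 proteases and inhibitors, 4 were higher and 2 lower. The membrane-anchored metalloproteinase gene Mmp15 (-0.65 ± 0.12, SE; adjusted p = 1.04e-04) and Adamts4 (-0.39 ± 0.07, SE; adjusted p = 1.23e-04), whose product cuts aggrecan-type proteoglycans, were lower. Timp4, which encodes an inhibitor of metalloproteinases, was among the higher ones (0.31 ± 0.07, SE; adjusted p = 4.51e-04), as was the serine protease gene Htra1 (0.37 ± 0.08, SE; adjusted p = 0.00113). Of 16 matrix receptors, 1 was lower and 2 were higher: the integrin gene Itgb4 at -0.38, and Itgb5 and Itgb8 at 0.17 and 0.15.

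Of 12 other basement membrane genes, Fbln5, which encodes the elastic fibre protein fibulin 5, was higher in CAC than in mock at 8 wk (0.68 ± 0.12, SE; adjusted p = 7.97e-05), and Npnt, which encodes the integrin ligand nephronectin, was lower (-0.30 ± 0.08, SE; adjusted p = 0.00718). Of 16 genes of TGF-beta signalling and its targets, 3 were higher and 1 lower. The ligand gene Tgfb3 was at 27.2 ± 2.64 TPM in CAC, 19.7 ± 1.98 in NCAC and 20.7 ± 2.08 in mock (0.38 ± 0.09, SE; adjusted p = 0.00118 against mock). Ctgf, a matricellular gene that TGF-beta induces, was at 20 ± 9.04, 9.07 ± 2.83 and 8.77 ± 3.92 TPM in CAC, NCAC and mock (1.07 ± 0.31, SE; adjusted p = 0.00932). The shared signal transducer gene Smad4 differed by 0.18, and Ltbp1, which encodes a protein that stores latent TGF-beta in the matrix, by -0.28.

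Between 2 and 8 wk within the CAC groups, 13 members passed, 4 higher and 9 lower at 8 wk, where 17.9% of all genes passed, 8.26% higher and 9.62% lower. Of these, 9 were also called between CAC and mock at 8 wk. The higher ones were Mgp (1.20 ± 0.21, SE; adjusted p = 4.34e-05), Sparc (0.50), Fn1 (0.47) and Lama2 (0.30). The lower ones included Col2a1 (-1.34 ± 0.27, SE; adjusted p = 3.42e-04), Col1a1 (-0.76 ± 0.15, SE; adjusted p = 3.52e-04), Col3a1 (-0.74 ± 0.16, SE; adjusted p = 0.00101), Nid1 (-0.47), Ncan (-0.45), Col15a1 (-0.44), Col4a1 (-0.40), Col4a2 (-0.31) and the laminin gene Lamc1 (-0.14). Col1a1 was at 3.8 to 8.89 TPM with a median of 5.19 TPM in CAC at 8 wk and at 14.5, 8.6, 8.43, 8.76 and 12.8 TPM in CAC at 2 wk. The 2 groups overlapped only through replicate 3 of 8 wk. The call of Col4a2 was lost without CAC 2 wk replicate 1 (0.0962), 3 (0.0729), 4 (0.0689) or 5 (0.0971) or CAC 8 wk replicate 4 (0.0783), 6 (0.0864) or 7 (0.0595), and that of Lamc1 without CAC 2 wk replicate 1 (0.1) or 3 (adjusted p = 0.0532). With only the groups compared both were lost (adjusted p = 0.0705 for Col4a2 and 0.0578 for Lamc1).

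Over the same weeks limma called 0 members in NCAC, where 6 had an unadjusted p under 0.05 (13.6% of all genes) and 0.0486% of all genes were called. In mock it also called 0, where 3 had such a p (8.41% of all genes) and 0% of all genes were called. The sign in mock was also negative for Col3a1, at -0.40 (adjusted p = 0.546), and for Col1a1, at -0.18 (adjusted p = 0.79). Likewise Nid1 was at -0.22 in mock (adjusted p = 0.491) and -0.25 in NCAC, beside -0.47 in CAC. Lamc1 was at -0.12 in mock and -0.07 in NCAC, beside -0.14 in CAC. Col4a1 was at -0.21 in mock but 0.05 in NCAC. Of the members lower in CAC at 8 wk than at 2 wk, only Col2a1 had a positive sign in mock (0.05). How far the gap between CAC and mock changed between 2 and 8 wk was tested in the same fit. It passed for 3 members, all with a higher gap at 8 wk, Sparc (0.57 ± 0.13, SE; adjusted p = 0.0172), Mgp (1.14 ± 0.31, SE; adjusted p = 0.042) and Lama2 (0.45 ± 0.13, SE; adjusted p = 0.0494), where 1.55% of all genes passed and 0.958% did so in that direction. With mitochondrially encoded genes left out, the calls were 2 higher and 1 lower. Without CAC replicate 3 of 8 wk, 6 members passed, with Col2a1 (-1.45; adjusted p = 0.0257), Ncan (-0.42; adjusted p = 0.0394) and Col15a1 (-0.49; adjusted p = 0.0342) in addition, where 4.65% of all genes passed. That library was picked out after its values were seen, as described above.

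The change of Sparc held without any 1 library, but it was lost with only the groups compared (adjusted p = 0.054), where 0.319% of all genes passed. Those of Mgp and Lama2 did not hold without some libraries. That of Mgp was lost without CAC 2 wk replicate 1, 4 or 5, mock 2 wk replicate 1, 2, 4 or 5, CAC 8 wk replicate 1, 2, 4, 6 or 7, or mock 8 wk replicate 1, 2 or 3, with adjusted p from 0.0522 to 0.0955. That of Lama2 was lost without any 1 of the CAC 2 wk libraries, mock 2 wk replicate 1, 2, 4 or 5, CAC 8 wk replicate 1, 2, 4, 5, 6 or 7, or mock 8 wk replicate 1, 3 or 4, with adjusted p from 0.0501 to 0.109. Both were also lost with no filter on low genes (adjusted p = 0.071 for Mgp and 0.0805 for Lama2). The change of Lama2 was lost as well with a pseudocount of 0.1 (0.05145), without mitochondrially encoded genes (0.0517) and with only the groups compared (adjusted p = 0.0872). It kept its call in 8 of 31 alternatives, and that of Mgp in 14 of 31.

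**Figure D5:**
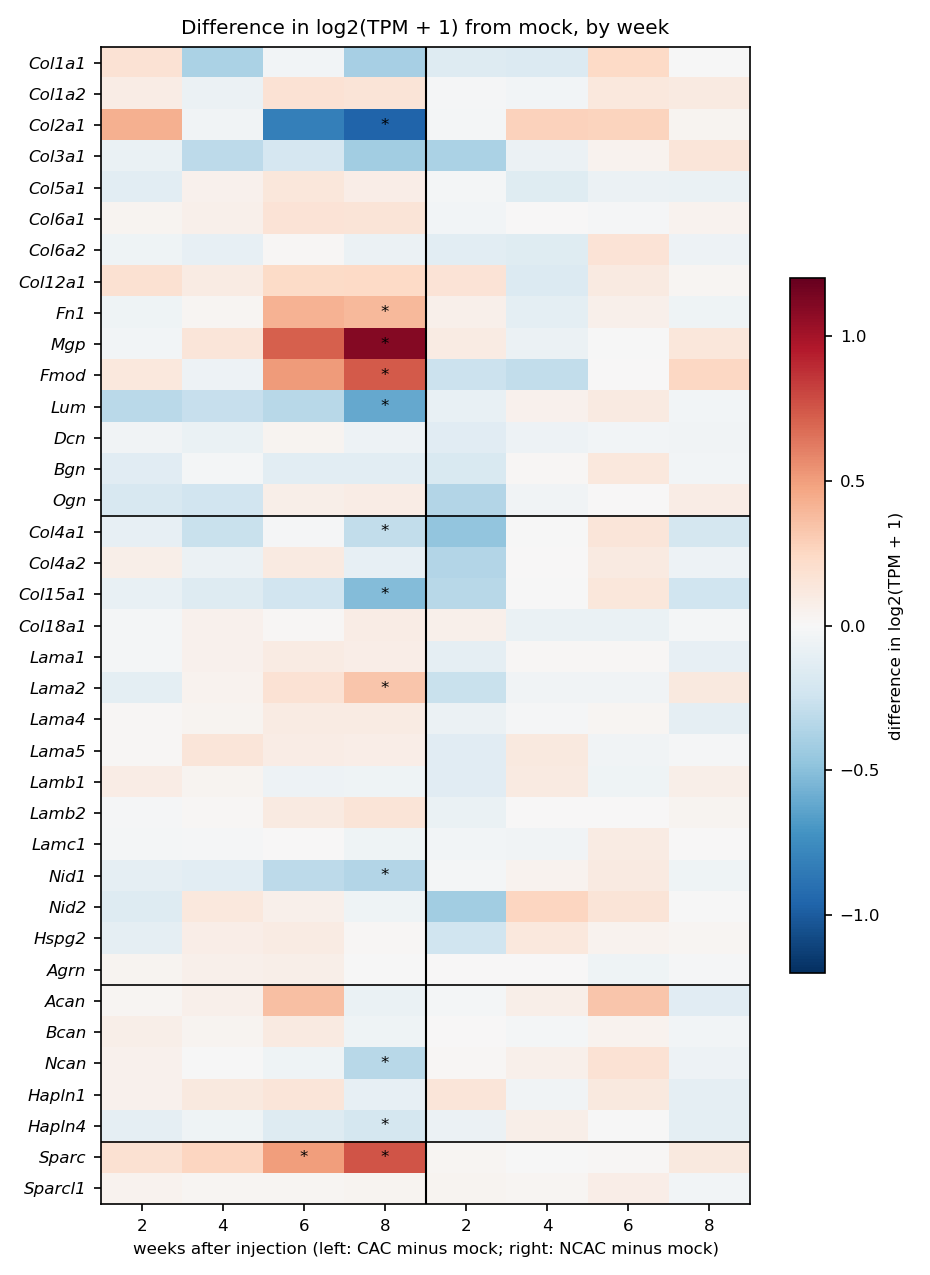
Difference in log2(TPM + 1) from mock for the 37 members at 2, 4, 6 and 8 wk, for CAC on the left and NCAC on the right. Rows are grouped, from the top, as fibrillar and meningeal, basement membrane, perineuronal and matricellular genes, and asterisks mark an adjusted p under 0.05. The 13 asterisks all lie on the CAC side, 1 at 6 wk and 12 at 8 wk.

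Earlier weeks and the non-cachectic tumour gave few differences. Between CAC and mock, limma called 0 members at 2 wk, as 0% of all genes, and 0 at 4 wk, where it called 0.00694% of all genes. An unadjusted p under 0.05 was reached by 1 member at 2 wk (4.84% of all genes) and by 3 at 4 wk (7.98%). Between CAC and NCAC limma likewise called 0 members at 2 wk (0% of all genes) and 0 at 4 wk (0.00694%), with 5 at an unadjusted p under 0.05 at 2 wk (6.85%) and 4 at 4 wk (9.47%). At 6 wk 6 members differed between CAC and NCAC, 2 higher and 4 lower, where 9.45% of all genes were called, 7.47% higher and 1.99% lower: Sparc, Mgp, Col2a1, Nid1, Col15a1 and Hapln4. Of these, 4 were also called against NCAC at 8 wk. That count fell to 3 without CAC replicate 1 or 3 or without NCAC replicate 2 or 3 of 6 wk. The 6 wk count against mock, 1, reached 5 without CAC replicate 4. Groups without overlap at 6 wk were seen for 5 members against mock (Fmod, Acan, Sparc, Nid1 and Hapln4), where 2.97% of all genes had such groups, and for Sparc and Nid1 against NCAC, where 6.74% had them.

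Between NCAC and mock, limma called 0 members in each week, with 7, 0, 1 and 2 members at an unadjusted p under 0.05 at 2, 4, 6 and 8 wk, against 5.42%, 2.13%, 8.35% and 7.21% of all genes. The share of all genes called was 0.0139% at 2 wk and 0% in each later week. The 7 members at 2 wk were all lower in NCAC, and they included Col4a1, Col4a2 and Col15a1, whose groups did not overlap, as was the case for 1.32% of all genes. Col4a1 was at 10.6, 10.3, 10.2, 10.6 and 10.4 TPM in NCAC at 2 wk and 14.4, 13.2, 16.6, 14.8 and 15.3 TPM in mock, a difference of -0.47 (adjusted p = 0.228). The CAC libraries of 2 wk, at 15.6, 10.8, 13.3, 13.5 and 16.1 TPM, were all above the NCAC libraries, as for 1.42% of all genes whose groups did not overlap there. Choroid plexus markers at 2 wk summed to 26.4, 5325, 29.9, 4859 and 35.1 TPM in NCAC. They summed to 34.5 to 5844 TPM in CAC and 648 to 5327 in mock. Meningeal fibroblast markers summed to 127, 220, 87.4, 211 and 116 TPM in NCAC, 142 to 228 in CAC and 149 to 206 in mock. The part of both lists in the 2 wk differences was not tested.

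Of 8 melanocytic markers 4 were tested, and 3 were lower in CAC than in mock at 8 wk (S100a1, Pmel and Sox10), beside 7.34% of all genes. Tyr and Mlana averaged under 0.1 TPM. The list summed to 142 to 198 TPM over all libraries, with the highest sum in a mock library, so it is not read as a measure of melanoma cells. Of 6 red cell markers tested, Slc4a1 was higher (0.42 ± 0.13, SE; adjusted p = 0.0141), beside 13.4% of all genes. Mitochondrially encoded transcripts took 17.1 to 20.9% of TPM in CAC at 8 wk, 20.6 to 20.9% in NCAC and 18.9 to 21.8% in mock. The part of these values in the matrix results was not tested.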

How the data were processed

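RNA was prepared with a stranded mRNA kit per the labels' protocols. The authors deposited TPM values (length-scaled transcript abundances with a fixed total) for 62 libraries, and mm10 is named per the submitters' processing notes. Neither the quantifier nor its strand setting is stated in the sources used here, so overlapping genes are uncertain. TPM keeps no depth, so no interval from read counts is given. Samples were grouped by their descriptions.

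Values were tested as log2(TPM + 1) with limma 3.58.1 in R 4.3.3 for the 14399 genes with a mean of at least 1 TPM. One fit over the 12 groups (50 residual degrees of freedom, intensity trend) gave 16 comparisons, each with Benjamini-Hochberg adjustment over all genes at 0.05. It was tested on simulated data. Alternatives were another pseudocount (0.1), no filter, a 5 TPM filter, median-of-ratios scaling, quantile normalization, removal of mitochondrially encoded genes, array weights, only the groups compared, a replicate block, and leaving out each library. The members and gene lists were chosen with earlier results of these data known. Named were the members called in the comparisons of CAC with mock or NCAC at 6 or 8 wk, the 2 members of highest mean TPM in each sub-group, and, of each further list, up to 4 called genes with the smallest p. Positions came from GENCODE M21 and promoters from RefSeq. Intervals of 2 SE are given for members that did not pass.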

Additional observations from a re-analysis of the deposited data

Results flagged for a closer look

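A gap test for a single distant library within a group was run on 156 groups of 13 members, and 10 were marked, where chance marks about 1 in 20. In CAC, Col2a1 reached 2.82 TPM in replicate 4 of 6 wk (0.526 to 1.12 TPM in the others of that group), and Col3a1 3.39 TPM in replicate 3 of 8 wk (1.11 to 1.84 TPM). Hapln4 was low at 191 TPM in CAC replicate 1 of 6 wk (206 to 209.9 TPM), and Ncan at 8.89 TPM in CAC replicate 2 of 2 wk (10.0 to 10.4 TPM). In NCAC, Sparc was high at 898 TPM in replicate 2 of 4 wk (811 to 836 TPM) and at 1070.3 TPM in replicate 3 of 8 wk (805 to 863 TPM). Col2a1 was high at 4.33 TPM in NCAC replicate 3 of 6 wk (2.82 to 3.19 TPM), and Col3a1 at 3.86 TPM in NCAC replicate 2 of 6 wk (2.34 to 2.70 TPM). In mock, Ncan was high at 11.8 TPM in replicate 1 of 8 wk (7.97 to 8.997 TPM), and Mgp at 48.2 TPM in replicate 5 of 2 wk (35.1 to 38.5 TPM).

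The difference between CAC and mock was itself different at 8 wk and at 2 wk for Mgp (1.14), Sparc (0.57) and Lama2 (0.45), as log2 values from limma's test of that change.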

How the results depend on the processing

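Over the alternatives, 43 called differences of members gave 910 values, of which 772 kept direction and call, 138 lost the call and 0 changed sign. 14 of the 43 kept the call throughout. The count of members called between CAC and mock at 6 wk (1) was 2 under median-of-ratios scaling, under quantile normalization and without mitochondrially encoded genes, 4 with array weights and 0 with only the groups compared, where it ranged from 1 to 5 when a library was left out. With only the groups compared, the count was 1 between NCAC and mock at 2 wk (0) and 3 between CAC and NCAC at both 6 wk (6) and 8 wk (8). The change in the gap between CAC and mock (3) passed for 1 member with no filter and for 6 with array weights. Leaving out a library gave 10 to 14 members between CAC and mock at 8 wk, 3 to 8 and 5 to 11 between CAC and NCAC at 6 and 8 wk, 11 to 13 between 8 and 2 wk in CAC, and 1 to 6 for the change. All other counts stayed at 0. The 5 between CAC and NCAC at 8 wk came without NCAC replicate 2 or 5, and the 11 without CAC replicate 3. Under both other scalings the split between CAC and NCAC at 6 wk was 1 higher and 4 lower. Of all genes called between CAC and mock at 8 wk, 64.6% were higher, against 50.4% under median-of-ratios scaling, 47.0% under quantile normalization and 41.8% without mitochondrially encoded genes. The cause of these shifts was not tested.

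Same-numbered libraries correlated over 0.1 in 10 of 20 pairs of CAC and NCAC (4 of 5 at 2 wk, 3 of 5 at 4 wk), 2 of 20 of CAC and mock and 4 of 20 of NCAC and mock (-0.239 to 0.396), and in 35 of 120 comparisons a library correlated best with its own number. As not every pair exceeded 0.1, the numbers were not taken as pairs. This was a rule of choice and not a test of pairing, and whether CAC and NCAC libraries share a source by number was not tested. For comparisons within a week, a block for each replicate number of a week was added to the fit of all groups. There 3 members passed between CAC and NCAC at 8 wk (682 of all 14399 genes). Against mock at 8 wk 10 members passed (1894 genes), and the calls of Col4a1 (adjusted p = 0.126) and Ncan (adjusted p = 0.0668) were lost. Between CAC and NCAC at 6 wk 5 passed (1242 genes), and the call of Hapln4 was lost (adjusted p = 0.0635). For comparisons across weeks, only the groups compared were fitted, and equal numbers of different weeks were joined. That fit had fewer residual degrees of freedom, and the correlations above, taken within a week, do not bear on its block. In it, 0 members passed between 8 and 2 wk in CAC (74 genes), where the 13 called members had adjusted p from 0.0608 to 0.268. For the change 0 passed (2 genes, and adjusted p = 0.112 for Sparc). With so few TPM behind Col2a1, Col3a1 and Col15a1 and no read counts, their counting error is unknown.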
